A study of Mus musculus with 2 samples.

Results

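Ribosomal protein genes encode the proteins of the large and small subunits of the cytoplasmic ribosome, and they were read here in single cells sorted from mouse knee joint cartilage. The members were all feature symbols that begin with Rpl or Rps and a digit, with Rplp and a digit, or that read Rpsa, without symbols carrying -ps and without the Rps6k kinases. This gave 86 of the 32286 features of both matrices, of which 85 had at least 1 unique molecular identifier (UMI, the tag that marks 1 captured RNA molecule) in the kept cells. By symbol, 52 belong to the large subunit and 33 to the small subunit, and Rps19bp1 encodes a partner of the Rps19 protein and no part of the ribosome.

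A ribosome holds 1 copy of nearly every ribosomal protein, so cells make the set in matched amounts. In mammals these messages share a pyrimidine-rich start, through which the growth-sensing kinase mTOR sets how much of them is translated. Growing and dividing cells, such as marrow progenitors or growth cartilage, are known to devote much of their RNA to ribosomes. A few members have a paralog that can take the place of the usual protein in the ribosome.

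Both libraries came from Procr-CreER;tdTomato mice, in which tamoxifen lets Cre, made where the Procr gene is active, switch on a red reporter that descendants keep. The trace library was taken 4 weeks after tamoxifen and the pulse library 2 days after it, in both cases after tamoxifen at 4 weeks of age. Each library pooled 3 mice, and cells negative for CD45, Ter119, CD31 and DAPI and positive for tdTomato were sorted from the superficial layer. With 1 library per group there is no replicate error and no test between the groups. Age at collection, chase time, library and sex, which differed by the sex-linked genes given below, cannot be told apart.

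Cells with 500 or more genes and 10% or less of UMIs from mt- genes were kept, 9247 in trace and 6533 in pulse. They held 39286993 UMIs in trace (median 3645 per cell) and 23081284 in pulse (median 2837), and 15 kept barcodes occurred in both libraries. The libraries also differed in other ways, and their part in the results below was not tested. Xist had 14149 UMIs in trace and 3 in pulse, and the Y-linked gene Ddx3y had 13 in trace and 4246 in pulse. By these genes, trace cells were mainly female and pulse cells mainly male. Transcripts that overlap ribosomal RNA, led by Gm42418, took 8.89% of UMIs in trace and 0.961% in pulse. Of 2 nuclear RNAs, Malat1 took 4.72% in trace and 2.67% in pulse, while Neat1 took 0.204% in trace and 0.502% in pulse.

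Cells were put into 12 gates by markers, and a name ending in "-like" rests on those markers alone. Of the 8 superficial-zone markers, Prg4, Cilp, Clu, Cytl1 and Ecrg4 were raised 1.5-fold or more in that gate against the other gates, while Creb5, Abi3bp and Vit were not, and the gate used all 8, so this is no independent check. Of the 9 deeper-zone markers, 8 were raised in that gate, among them Snorc, Col11a1, Ucma and Hapln1, which the gate did not use, and Chad was not. The superficial-zone gate held 4294 trace and 3044 pulse cells, and the deeper-zone gate held 124 trace and 627 pulse cells. No gate took 1892 trace and 2112 pulse cells, and several gates at once took 191 and 84. The T and NK cell, macrophage and megakaryocyte lists marked 2, 7 and 1 trace cells and, for macrophages alone, 1 pulse cell, and the tenocyte, glial and muscle lists marked none.

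The sequence around the start of a ribosomal protein gene is shown for the 4 members with the highest and the 4 with the lowest trace over pulse ratio among those listed in RefSeq (GRCm38.p6). Each line runs from 20 bases before the annotated start to 10 bases from it, on the gene's strand, and capitals mark the longest unbroken run of C and T in that window.
Rps24, chr14:24490658-24490687, plus strand: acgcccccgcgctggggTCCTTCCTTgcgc
Rps15a, chr7:118116138-118116167, minus strand: gcccaCTCTCTTTCTgccatcttccctcgc
Rps27, chr3:90213639-90213668, minus strand: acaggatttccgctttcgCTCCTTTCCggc
Rps13, chr7:116334181-116334210, minus strand: cgcgcgagagcaaacgTCggtgagtggcgt
Rpl5, chr5:107900508-107900537, plus strand: CTCTTTCTCacgtcgcttgcgtgctggtgg
Rpl37, chr15:5116593-5116622, plus strand: gaagtagTTTCCTgggcggaagcttatcca
Rpl41, chr10:128549159-128549188, minus strand: gacgacacacgggccggCTCggaagtgacg
Rpl10a, chr17:28328451-28328480, plus strand: gcgtggtggcgCCCCCCCagcggccgcaaa
The run crosses the annotated start in Rps24 and Rps27 and lies before it in Rps15a and Rpl5. Of the 66 members with an entry, 28 (42.4%) had a run of 8 or more C or T bases in this window, against 3899 of 26959 other genes (14.5%). The median log2 ratio of trace over pulse was 0.38 for the 28 members with such a run and 0.42 for the 34 measured members without one. A run of these letters is a description of the annotated window, and the start used in these cells was not measured.

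Ribosomal protein genes took a larger share of UMIs in trace than in pulse, and the gap was wide in the superficial-zone gate and small in the deeper-zone gate. Over all kept cells the share was 10.2% (95% interval 10.19% to 10.21%) in trace and 7.93% (7.92% to 7.94%) in pulse, a ratio of 1.29 (1.28 to 1.29). In the superficial-zone gate it was 9.03% in trace and 5.61% in pulse, a ratio of 1.61 (1.61 to 1.62). In the deeper-zone gate it was 14.8% in trace and 13.7% in pulse, a ratio of 1.09 (1.08 to 1.09). Intervals are exact, Clopper-Pearson for shares and conditional Poisson for ratios, and cover counting error only, so they are a lower limit on the error.

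The same gap shows in single cells. Superficial-zone cells had a median share of 8.73% in trace, with quartiles of 6.53% and 11.01%, against 5.64% in pulse, with quartiles of 4.499% and 6.93%. In molecules, the median superficial-zone cell held 382 ribosomal protein UMIs in trace and 170 in pulse. The median deeper-zone cell held 1004 in trace and 1086 in pulse, so the median deeper-zone cell of both libraries carried more of these messages than the median superficial-zone cell of either. Median total UMIs were 4289 in trace and 3053 in pulse in the superficial-zone gate, and 6882 and 7614 in the deeper-zone gate.

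**Figure D1:**
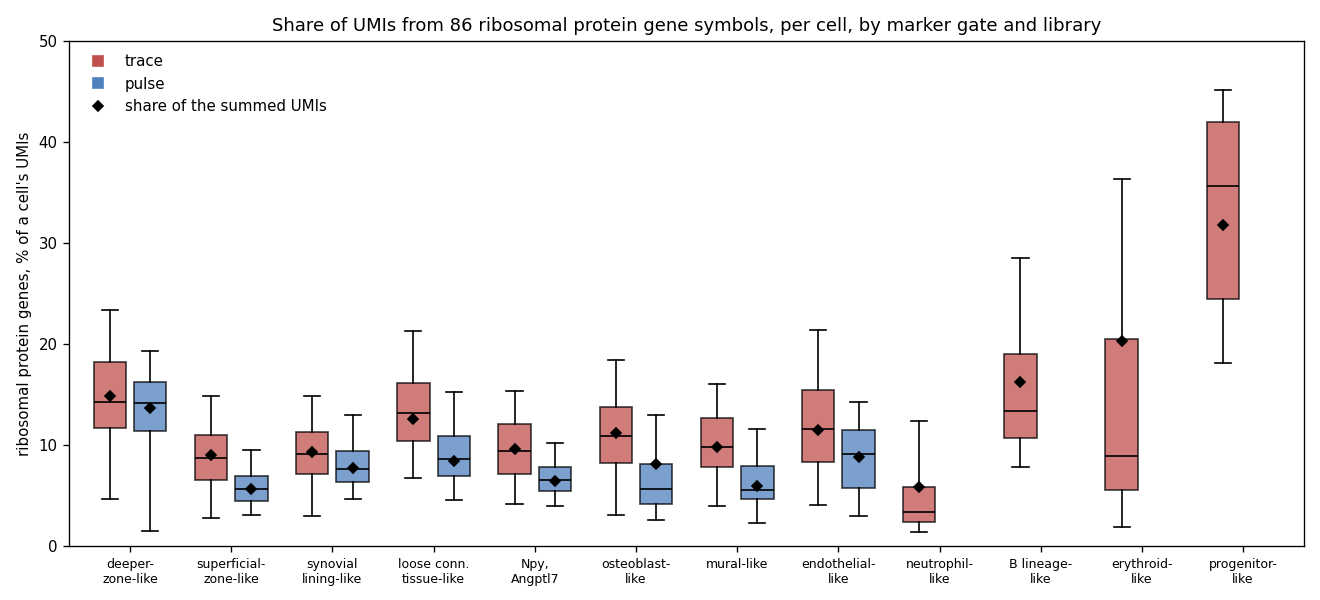
Share of each kept cell's UMIs that came from the 86 ribosomal protein symbols, in percent, by marker gate, with trace left of pulse; boxes give the median and quartiles, whiskers the 5th and 95th percentiles and diamonds the share of the summed UMIs, for groups of 20 or more cells. The superficial-zone medians were 8.73% in trace and 5.64% in pulse, while the deeper-zone medians were 14.2% in trace and 14.1% in pulse.

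Cells of other tissues of the joint fell between these zones. The summed share was 12.5% in trace and 8.42% in pulse in loose connective tissue fibroblast-like cells (383 and 93 cells), a ratio of 1.49. It was 9.58% in trace and 6.49% in pulse in cells with Npy and Angptl7 (245 and 177 cells), a ratio of 1.48. In synovial lining fibroblast-like cells (843 and 263 cells) it was 9.30% in trace and 7.70% in pulse, a ratio of 1.21. The lining-like gate thus stood nearer to the deeper-zone gate, and the other fibroblast-like gate nearer to the superficial-zone gate, in how far the libraries lay apart.

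The small gates had the same direction. The ratio was 1.38 in osteoblast-like cells (169 trace and 40 pulse cells), 1.65 in mural-like cells (276 and 30) and 1.29 in endothelial-like cells (336 and 58). All 8 gates with 30 or more cells in both libraries had a larger share in trace. Cells that passed no gate had 12.2% in trace and 6.48% in pulse, and cells that passed several had 11.2% in trace and 11.9% in pulse, a smaller share in trace.

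Blood-lineage cells, which reached the trace library in spite of the sort, spanned the whole range. The 21 myeloid progenitor-like cells, with Mpo, Elane and Prtn3, had 31.8% of their UMIs in ribosomal protein genes, and single cells reached 48.6%. The 246 neutrophil-like cells had a summed share of 5.89% and a median of 3.42%, below every other gate of the trace library. Within 1 library, then, the granulocyte lineage held both ends: progenitor-like cells were at 3.52 times the superficial-zone share of trace and neutrophil-like cells at 0.653 times. The 187 B lineage-like cells had 16.3% and the 40 erythroid-like cells 20.2%, where single erythroid-like cells ran from 1.10% to 41.2%. The pulse library had 3 neutrophil-like cells and 1 each of the progenitor-like and erythroid-like kinds, so no comparison was made there.

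How deeply a cell was read moved with its share, and in a different way in each library. In superficial-zone cells of trace the share was 5.57% below 1000 UMIs, 6.79% from 1000 to under 2000 UMIs, and 9.24%, 9.16% and 8.92% in the next 3 classes up to 8000 UMIs or more. In pulse it was 6.82% from 1000 to under 2000 UMIs and then 5.85%, 5.13% and 4.71%. Summed over cells of 1000 to under 2000 UMIs, the shares of both libraries were thus close, but the median cell of that class had 5.29% in trace and 6.69% in pulse, a smaller share in trace. From 2000 UMIs up, the summed share and the median cell's share were larger in trace in every class. Across superficial-zone cells Spearman's rho between the share and total UMIs was 0.13 in trace (4294 cells) and -0.32 in pulse (3044 cells), and the cells of each library share their source.

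**Figure D2:**
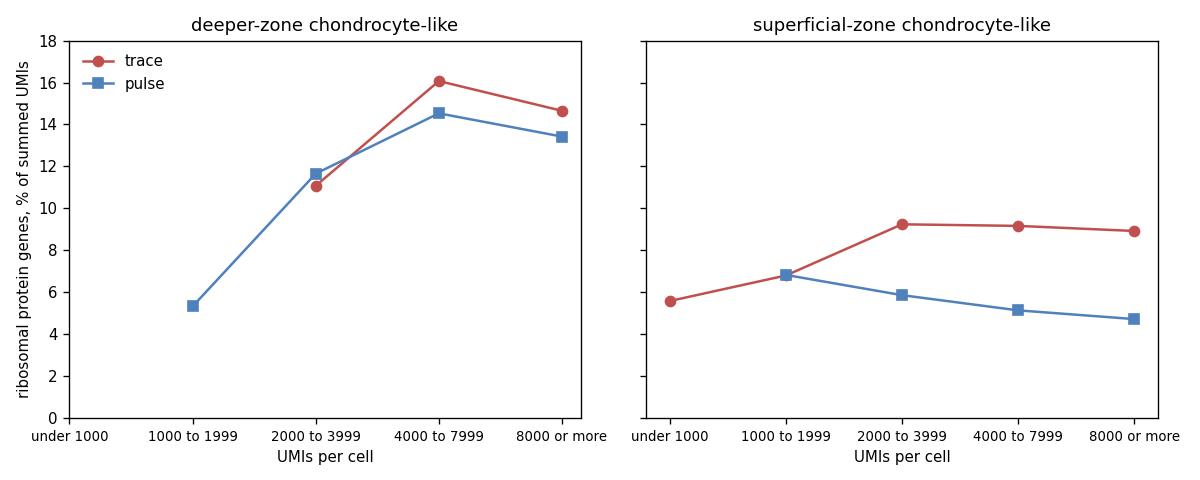
Ribosomal protein share of the summed UMIs, in percent, against UMIs per cell in 5 classes, for the deeper-zone and the superficial-zone gate, trace as circles and pulse as squares; classes with under 20 cells are left out. In the superficial-zone gate the share is 6.79% in trace and 6.82% in pulse at 1000 to under 2000 UMIs and stands at 8.92% in trace and 4.71% in pulse at 8000 UMIs or more.

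Superficial-zone cells were also split by the transcripts they held. Cells with 5 or more UMIs of Col10a1, the collagen of hypertrophic cartilage, had 8.63% in trace (964 cells) and 5.12% in pulse (972 cells), and the others had 9.20% in trace and 5.90% in pulse. Cells with 5 or more UMIs of the heat shock gene Hspa1b had 9.11% in trace and 5.79% in pulse, and the others 9.03% and 5.57%. Cells rich in Prg4, the lubricin gene, with 50 or more UMIs, had 8.87% in trace and 5.35% in pulse, and the others 9.59% and 5.71%. Cells with 3 or more UMIs of Msmp had 10.7% in trace (44 cells) and 8.15% in pulse (4 cells), and the others 9.01% and 5.61%, the widest difference between classes of these splits, which in pulse rests on 4 cells. In each of these splits the trace value was above the pulse value in both classes. The cut-offs are raw UMIs, and cells that reached them were read more deeply in every split. For Prg4 the median was 4938 UMIs against 2954 in trace and 3828 against 2852 in pulse. The part of depth in these splits was not tested.

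Within the deeper-zone gate, cells with cycle transcripts did not have the larger share. In trace, 12 cells reached 5 UMIs over the list of S and G2/M phase genes and had 13.1%, and the 112 others had 15.2%. In pulse, 268 cells reached it and had 13.5%, and the 359 others had 13.8%. Cells that reached it were read more deeply, with median UMIs of 12844 against 6450 in trace and 9500 against 6021 in pulse. The part of depth in this split was not tested either.

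Member by member, the log2 ratio of trace over pulse was above 0 for 69 of 82 measured ribosomal protein genes over all kept cells, 77 of 82 in the superficial-zone gate and 50 of 84 in the deeper-zone gate, and fewer passed a fold threshold. Levels are given as UMIs scaled to a total of 1000000 over the summed cells (CPM), and a member was called at a 1.5-fold difference if it had 20 CPM or more in at least 1 library. Over all kept cells, 29 of 82 measured members were called higher in trace, where 8.38% of all 6638 features were, and 2 were called lower, where 22.4% of all features were. In the superficial-zone gate 53 of 82 were called higher, against 7.71% of all features, and 2 lower, against 24.0%. At 2-fold, 24 members were higher there, against 2.37% of all features. In the deeper-zone gate 19 of 84 were called higher, against 8.94%, and 7 lower, against 35.4%.

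Scaling decides part of these counts: with edgeR TMM factors, which move all log2 ratios up by 0.29 over all kept cells, 0.39 in the superficial-zone gate and 0.28 in the deeper-zone gate, 47 members were called higher and 1 lower over all kept cells. The middle of the set keeps the order of the gates. The median log2 ratio of trace over pulse was 0.40 for members and -0.20 for all features over all kept cells. It was 0.69 for members and -0.24 for all features in the superficial-zone gate, and 0.17 and -0.34 in the deeper-zone gate. In the other gates the members called higher were 25 of 82 in lining-like cells (6.13% of all features), 42 of 82 in loose connective tissue-like cells (12.1%) and 42 of 82 in Npy and Angptl7 cells (9.61%). They were 39 of 83 in osteoblast-like cells (16.0%), 54 of 81 in mural-like cells (26.7%) and 30 of 83 in endothelial-like cells (17.8%). The last 3 rest on 58 or fewer pulse cells.

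The 4 members below the floor over all kept cells were Rpl10l, Rpl3l, Rpl39l and Rps27rt. Rpl10l, a copy of Rpl10 used in mouse male germ cells, had no UMI in either library. A count of 0 allows up to 3 UMIs in each. Rpl3l, the striated muscle form of Rpl3, had 23 UMIs in trace and 4 in pulse, a ratio of 3.38 (1.15 to 13.4). Rps27rt, a retrotransposed copy of Rps27, had 14.9 CPM in trace and 5.63 CPM in pulse. Its reads are hard to place next to those of Rps27, as are those of any member with processed pseudogenes, so levels of single members carry that doubt.

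**Figure D3:**
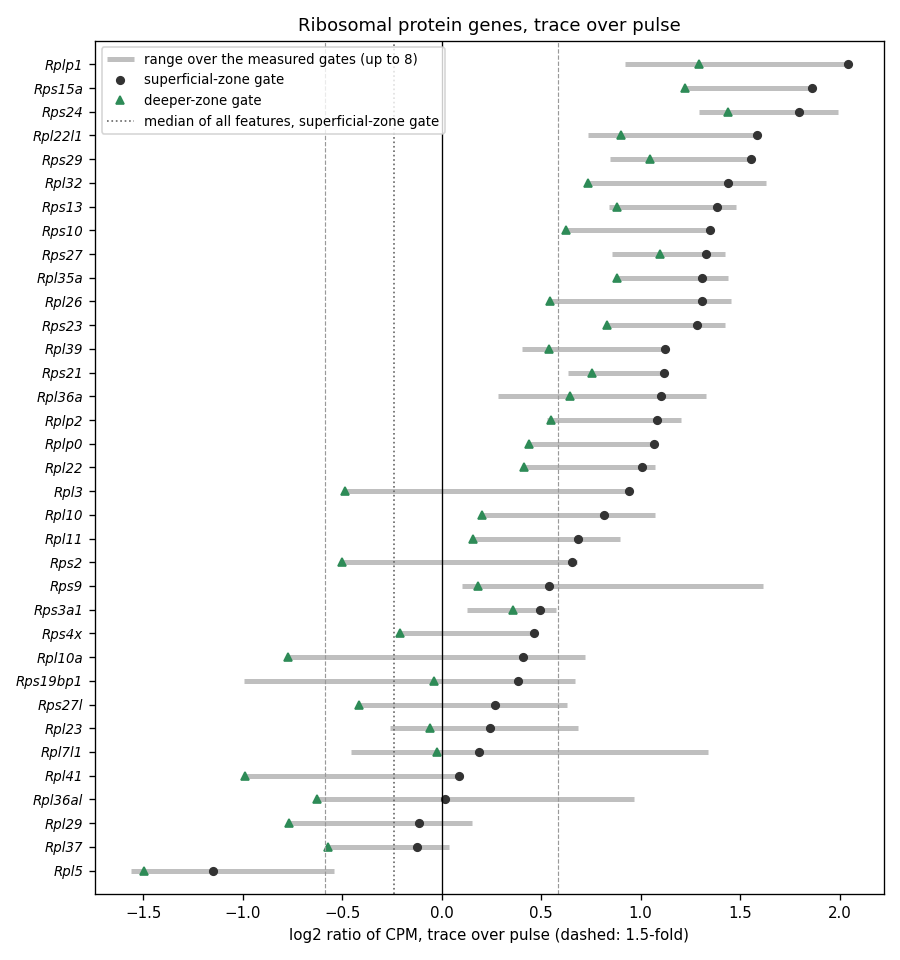
Log2 ratio of CPM, trace over pulse, for members named in the text and measured in the superficial-zone gate, ordered by that ratio; dots are the superficial-zone gate, triangles the deeper-zone gate and grey bars the range over the gates in which a member was measured. Rplp1, Rps15a and Rps24 head the order and Rpl5 ends it, with bars that lie wholly on 1 side of 0.

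Among proteins of the large subunit, those of the stalk that recruits elongation factors were all higher in trace. Rplp1 had 2384 CPM in trace and 578.9 CPM in pulse in the superficial-zone gate, 4.12-fold (4.01 to 4.23), the widest gap of any member there. Its partner Rplp2 had 2745 CPM in trace and 1297 CPM in pulse, 2.12-fold, and Rplp0, the base of the stalk, 814.7 and 389.2 CPM, 2.09-fold. In the deeper-zone gate the same genes stood at 2.45-fold, 1.46-fold and 1.36-fold. Rplp1 thus lay further apart between libraries than the rest of the stalk in both zones, and over 8 gates its log2 ratio ran from 0.92 to 2.04.

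Rpl5 went the other way from nearly all members. Its protein joins Rpl11 and the 5S ribosomal RNA in a particle that enters the large subunit and, when assembly fails, binds Mdm2, the inhibitor of p53. Rpl5 had 1303 CPM in trace and 3542 CPM in pulse over all kept cells, a log2 ratio of -1.44. In the superficial-zone gate it had 1218 CPM in trace and 2697 CPM in pulse, and in the deeper-zone gate 1976 and 5578 CPM. Its log2 ratio was below 0 in all 8 gates, from -1.56 to -0.54. Rpl11, its partner, had 781.4 CPM in trace and 486.4 CPM in pulse in the superficial-zone gate, 1.61-fold, close to the middle of the set.

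Among further large subunit genes, Rpl29, Rpl37, Rpl41, Rpl10a and Rpl36al were also 1.5-fold or more below the median member over all kept cells. Rpl37 had 2851 CPM in trace and 3758 CPM in pulse. Rpl41, which encodes a very short peptide, had 1781 and 2263 CPM. Over all kept cells these 5 lay near 0 rather than far below it, with log2 ratios from -0.42 to -0.20. There edgeR TMM scaling, which rests on the bulk of features, adds 0.29 to each, which turns the sign of Rpl36al. In the superficial-zone gate the log2 ratio was -0.12 for Rpl37, -0.11 for Rpl29, 0.02 for Rpl36al and 0.09 for Rpl41. Rpl10a had 0.41 there, within 1.5-fold of the median member. All kept cells mix the gates differently in each library, with 124 deeper-zone cells in trace and 627 in pulse. The part of this mix was not tested.

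At the other end, Rpl32 and Rpl35a were 1.5-fold or more above the median member over all kept cells, and Rpl26 was so in the superficial-zone gate. Rpl35a and Rpl26, like Rpl5, are genes in which people with Diamond-Blackfan anaemia carry mutations. Rpl35a had 1744 CPM in trace and 704.0 CPM in pulse in the superficial-zone gate, and Rpl26 had 977.6 and 394.8 CPM. Rpl32 had 1339 CPM in trace and 494.3 CPM in pulse there. The median log2 ratio over all kept cells was 0.43 for 49 large subunit members and 0.34 for 32 of the small subunit.

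The small subunit supplied most members at the high end. Rps24, also mutated in Diamond-Blackfan anaemia, had 2047 CPM in trace and 590.0 CPM in pulse in the superficial-zone gate, 3.47-fold (3.38 to 3.57). Rps15a had 1509 CPM in trace and 415.2 CPM in pulse there, 3.63-fold (3.52 to 3.75). In the deeper-zone gate Rps24 had 3977 and 1464 CPM, and Rps15a 2493 and 1068 CPM. Over 8 gates the log2 ratio ran from 1.29 to 1.99 for Rps24 and from 1.22 to 1.86 for Rps15a, so both were at least 2-fold higher in each.

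Rps29 and Rps27, small proteins that bind zinc, came next in the small subunit over all kept cells, with log2 ratios of 1.26 and 1.19. Rps29 had 1320 CPM in trace and 449.3 CPM in pulse in the superficial-zone gate, 2.94-fold (2.85 to 3.03). Rps27 had 1258 CPM in trace and 500 CPM in pulse there, 2.52-fold, below Rps13 (2.61-fold) and Rps10 (2.55-fold) in that gate. Rps13, Rps23 and Rps10 completed the group, with log2 ratios of 1.13, 1.10 and 0.94 over all kept cells.

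The members with the most UMIs mostly sat near the middle. UMIs are counted at the 3' end, so a level in CPM is per molecule and is not scaled to length. Rpl23 had 4140 CPM in trace and 4192 CPM in pulse. Rps3a1 had 2743 CPM in trace and 2379 CPM in pulse, while Rps21 stood apart among them with 2970 and 1583 CPM. The 4 X-linked members, Rpl10, Rpl36a, Rpl39 and Rps4x, had a median log2 ratio of 0.59, against 0.40 for 78 others. Sex, as read from Xist and Ddx3y, differed between the libraries, and its part in this was not tested and cannot be told apart from that of library.

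Members with short transcripts had the higher ratios. Across 82 members Spearman's rho between the log2 ratio over all kept cells and the length of the first-named coding transcript in GENCODE M21 was -0.44, and it was -0.42 in both chondrocyte gates. All members share the same 2 libraries, so this is a description with no test. The median log2 ratio was 0.64 for 28 members up to 612 bases, 0.41 for 27 in the middle and 0.19 for 27 above 946 bases. Over other features rho was -0.16 over all kept cells (6313 features), -0.24 in the superficial-zone gate (5907) and 0.03 in the deeper-zone gate (6284).

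Set against each other within a library, deeper-zone cells had more of nearly every member than superficial-zone cells, both when taken at 4 weeks and at 2 days. The deeper-zone share was 1.64 times the superficial-zone share in trace (1.63 to 1.65) and 2.44 times in pulse (2.43 to 2.44). In trace 63 of 84 members were 1.5-fold or more higher in the deeper zone, against 17.2% of all features, and in pulse 80 of 83, against 26.9%. No member was 1.5-fold lower there in either library, against 25.1% of all features in trace and 24.4% in pulse. The median member stood at a log2 ratio of 0.71 in trace and 1.32 in pulse, with all features at -0.15 and 0.01. The 2 libraries are the only repeats of this contrast, and no test was made of it.

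**Figure D4:**
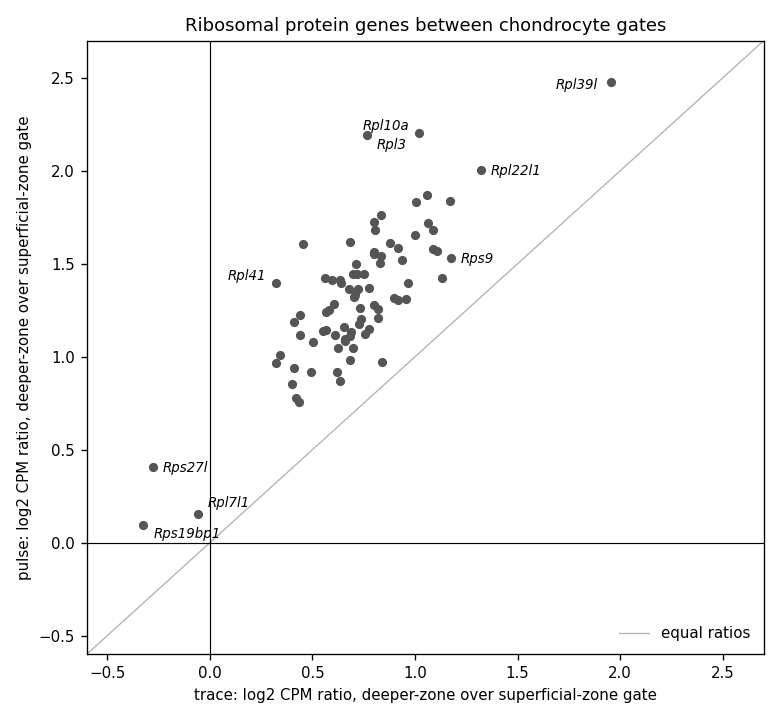
Log2 ratio of CPM, deeper-zone over superficial-zone gate, for each member in trace (x axis) and in pulse (y axis). Rpl39l lies at the top in both libraries, and Rpl22l1 comes next in trace but below Rpl10a and Rpl3 in pulse. Rps27l, Rpl7l1 and Rps19bp1 lie apart at the low end, and most members lie above the line of equal ratios.

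Paralogs stood at both ends of the contrast between zones, but not alone at the high end. In pulse Rpl10a (4.61-fold) and Rpl3 (4.56-fold) came above the paralog Rpl22l1 (4.02-fold). In trace they stood at 2.03-fold and 1.70-fold, below Rpl22l1 (2.50-fold). Rpl39l, whose protein can stand in for Rpl39 at the tunnel through which the new peptide leaves and which is known from mouse male germ cells, had the highest ratio in both libraries. In trace it had 54.1 CPM in the deeper zone and 13.9 CPM in the superficial zone, 3.88-fold (2.82 to 5.26). In pulse it had 33.7 and 6.07 CPM, 5.56-fold (4.13 to 7.56). These rest on 50 and 283 UMIs in trace and on 169 and 62 UMIs in pulse.

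Cells with Rpl39l were few, and their share was larger in the deeper zone in both libraries. In trace 31 of 124 deeper-zone cells (25%, 17.7% to 33.6%) had a UMI of it, against 224 of 4294 superficial-zone cells (5.22%). In pulse 103 of 627 deeper-zone cells (16.4%, 13.6% to 19.6%) had one, against 50 of 3044 (1.64%). Among mural-like cells 2 of 276 in trace (0.725%) and 0 of 30 in pulse had one, at median depths of 2264 and 1448 UMIs. With cells of 4000 or more UMIs thinned to 4000, the share was 20.8% of 96 deeper-zone and 4.96% of 2380 superficial-zone cells in trace, and 12.1% of 539 and 1.62% of 801 in pulse. Osteoblast-like cells had 27.7 CPM in trace and 55.1 CPM in pulse, where the pulse value comes from 6 UMIs.

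Rpl22l1, the paralog of Rpl22, had a high ratio in the deeper zone with many more UMIs. In trace it had 1338 CPM in the deeper zone and 535.5 CPM in the superficial zone, 2.50-fold (2.35 to 2.65). In pulse it had 716.4 and 178.3 CPM, 4.02-fold (3.80 to 4.25). Of the UMIs of Rpl22l1 and Rpl22 together, Rpl22l1 made up 52.2% in the deeper zone and 42.9% in the superficial zone in trace, and 43.8% and 33.4% in pulse. Between libraries it was also raised beyond the median member in the superficial-zone gate, 535.5 CPM in trace and 178.3 CPM in pulse. Rpl22 itself had 714.1 CPM in trace and 355.7 CPM in pulse there, 2.01-fold.

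The share of Rpl22l1 within its pair also differed between other cell types. It was 28.8% in trace and 25.9% in pulse in loose connective tissue-like cells, 33.0% and 23.5% in endothelial-like cells, and 32.4% and 31.9% in lining-like cells. B lineage-like cells of trace, with 29.3%, lay in the same range. In osteoblast-like cells it was 44.8% in trace and 41.5% in pulse, where the pulse interval runs from 30.7% to 52.9%.

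**Figure D5:**
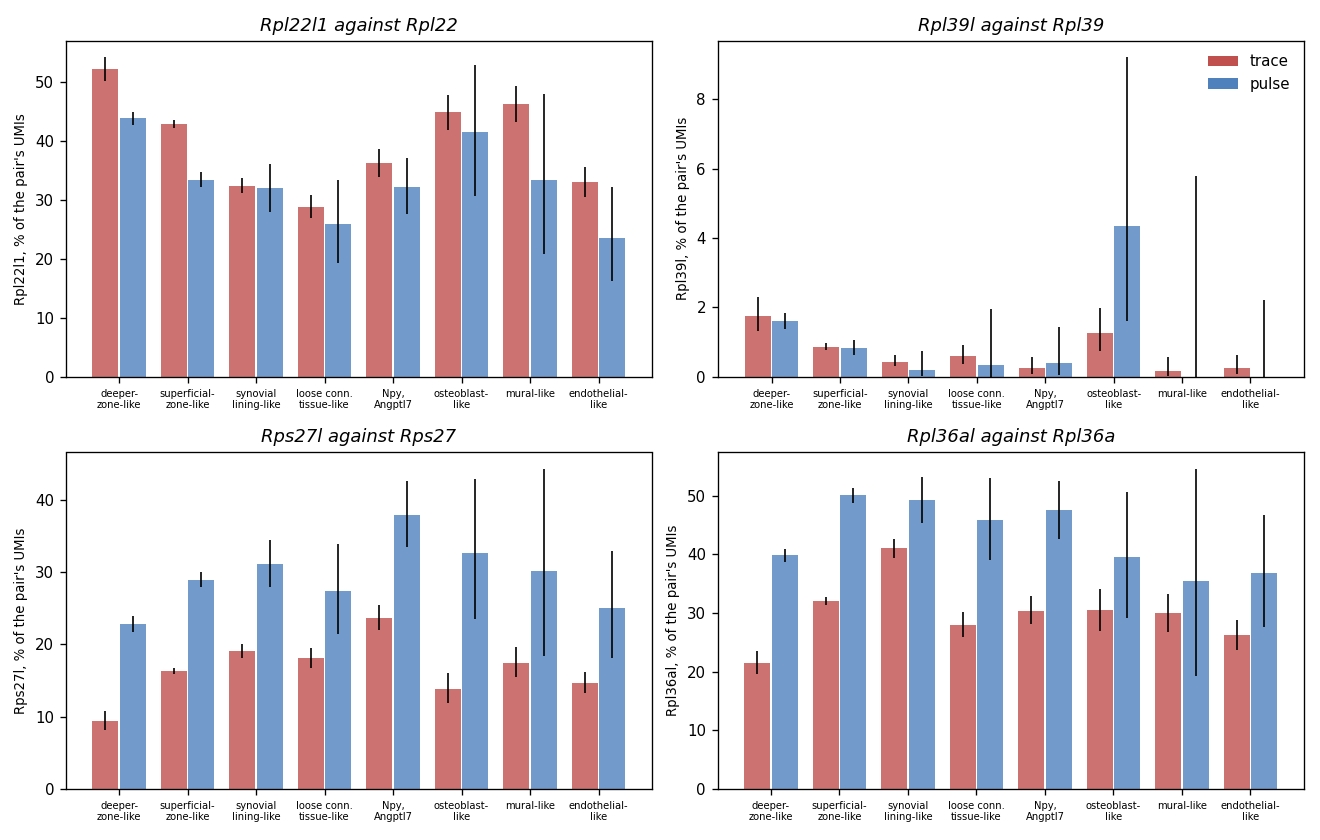
UMIs of a paralog as a percent of the UMIs of the paralog and its partner, by gate, trace left of pulse, with exact 95% intervals for counting error, for Rpl22l1, Rpl39l, Rps27l and Rpl36al. Rpl22l1 made up 52.2% of its pair in deeper-zone cells of trace and 43.8% in those of pulse, while Rps27l made up 9.40% in trace and 22.8% in pulse.

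Rps27l, a paralog of Rps27 that p53 is known to switch on, stood apart from the set in the deeper zone. In trace it had 202.4 CPM in the deeper zone and 245.3 CPM in the superficial zone, 0.825-fold (0.709 to 0.955), and in pulse 269.8 and 203.8 CPM, 1.32-fold (1.24 to 1.42). Within its pair it made up 9.40% in the deeper zone and 16.3% in the superficial zone in trace, and 22.8% and 29.0% in pulse. In blood cells of trace it made up 6.30% of its pair in neutrophil-like, 9.04% in progenitor-like and 9.36% in B lineage-like cells, but 17.99% in erythroid-like cells, whose interval of 15.4% to 20.8% includes the superficial-zone value. Its share of the pair was 22.8% or more in all 8 gates of pulse and 23.6% or less in those of trace.

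Rpl7l1 and Rps19bp1 had flat levels as well. Rpl7l1, the paralog of Rpl7, had 44.4 CPM in the deeper zone and 46.2 CPM in the superficial zone in trace, and 45.1 and 40.5 CPM in pulse. Rps19bp1 had 24.9 and 31.2 CPM in trace, and 25.6 and 23.9 CPM in pulse. All 4 of these ratios have intervals that include 1. Rpl36al, the autosomal copy of X-linked Rpl36a, made up 32.0% of its pair in trace and 50.05% in pulse in the superficial-zone gate, and 21.5% and 39.8% in the deeper-zone gate.

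Besides the paralogs, Rps9 changed its place in the set in 1 cell type. Rps9, a small subunit protein by the channel where the message enters, made up 1.31% of ribosomal protein UMIs in trace neutrophil-like cells, 2.43 times its median over the gates with 100 or more cells. Its level there was 774.8 CPM, against 393.1 CPM in superficial-zone cells of trace, although the set as a whole was lower in neutrophil-like cells. Neutrophil-like cells had a median of 2298 UMIs. Among members with 20 or more UMIs observed, or implied by the median share, in such a gate, the others that departed 2-fold from their median were Rpl39l, Rps27l and Rps19bp1. Below that minimum, Rpl3l had 7 UMIs in trace neutrophil-like cells, 0.0159% of the set and also past 2-fold.

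Genes that work with the ribosome were set beside the members. Fau, which encodes Rps30 fused to a ubiquitin-like protein, had 1516 CPM in trace and 756.2 CPM in pulse over all kept cells, 2.01-fold. Rack1, a scaffold on the small subunit, had 410.5 CPM in trace and 607.9 CPM in pulse, 0.675-fold. These ribosomal proteins outside the symbol rule thus lay on both sides, as the members did.

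Counts in the companion lists stand against the shares of all features already given, 8.38% higher and 22.4% lower over all kept cells, 7.71% and 24.0% in the superficial-zone gate, and 8.94% and 35.4% in the deeper-zone gate. Of 17 elongation factors and other messages with a pyrimidine start, 2 were 1.5-fold higher and 1 was 1.5-fold lower over all kept cells, with a median log2 ratio of 0.15. In the superficial-zone gate 4 stood 1.5-fold higher and 1 lower, and the median was 0.38. Deeper-zone cells had 3 higher and 3 lower, and the median was -0.15. Tpt1, a growth-linked tumour protein, had 3299 CPM in trace and 1615 CPM in pulse, and Naca, which shields new peptides, had 535.4 and 276.5 CPM. Eif3h, of an initiation factor, had 150.3 CPM in trace and 285.5 CPM in pulse, and Eef1a1, which brings transfer RNA to the ribosome, had 2859 and 1918 CPM.

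Genes that build ribosomes had a median near 0 over all kept cells. Of 12 measured ribosome biogenesis genes, 2 were 1.5-fold higher in trace and 0 lower, with a median log2 ratio of 0.04. Those were Fbl, which methylates ribosomal RNA, with 54.9 CPM in trace and 32.6 CPM in pulse, and nucleolin, Ncl, with 238.5 and 158.4 CPM. Among deeper-zone cells 1 of 11 was higher and 3 were lower. Of 11 growth and TOR regulators 1 was lower and 0 were higher, and the median was -0.24. That one was Tsc1, a brake on mTOR, with 25.6 CPM in trace and 47.9 CPM in pulse, and in the deeper-zone gate 5 of 11 were lower. Of 42 measured mitochondrial ribosomal proteins 7 were lower over all kept cells, a share below that of all features, and 1 was higher, with a median of -0.10. Superficial-zone cells had 7 of 38 lower and 3 higher, with a median of 0.12. For deeper-zone cells 27 of 48 were lower and 1 was higher, and the median stood at -0.62. TMM scaling adds 0.29 to these medians over all kept cells, which brings those of the TOR and mitochondrial lists above 0 while the cytoplasmic members stay higher still.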

How the data were processed

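The deposited values are raw UMI counts, 1 per feature and cell barcode, for 2 droplet libraries (10x Genomics 3' V2 chemistry, per the labels), with no normalization. Cell Ranger 7.1.0 is named per the file headers, and Cell Ranger 3.0.1 with mm10 per the submitters' processing notes, and which of them made the counts was not settled. Whether introns were counted, and the annotation release, is not given in the sources used here. Reads that fit a gene and its pseudogene copies equally well may go uncounted.

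Counts were summed per library and gate with Python 3.11.15, numpy 2.4.6, scipy 1.17.1 and pandas 2.3.3. A gate needed 2 to 4 detected markers of its list, and the superficial-zone gate also 5 Prg4 UMIs and no other gate. Members reaching 20 CPM in either library counted as measured. The members, marker lists and gene lists were chosen with earlier results of these data known, and the gate minimums after seeing the data. Members were named if they departed 1.5-fold from the median member, 2-fold from their median share of the set over gates, if they had the 5 highest or lowest levels, or if they were paralogs. Of each companion list up to 4 genes were named. Some genes that meet these rules are not reported here. The ratios, their intervals and the fold calls were checked on counts simulated from the summed superficial-zone profile. The other steps, such as the gates, cell shares and start runs, were not checked in this way. Doublets were not removed, since Scrublet (scanpy 1.11.5) called 0 cells in both libraries, and removing the highest 5% of scores was an alternative. Start sequences were matched by symbol to RefSeq (GRCm38.p6), which held 66 of the 86 members, and of several promoters of a gene the one with the longest C and T run was used, for members and other genes alike. Alternatives changed the total, the scaling (TMM factors from edgeR 4.0.16), the cell filter, the floor, the gates and the depth.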

Additional observations from a re-analysis of the deposited data

Results flagged for a closer look

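Rpl3, Rps2 and Rpl10a were 1.3-fold or more higher in trace in the superficial-zone gate and 1.3-fold or more lower in trace in the deeper-zone gate. The difference between the gates was not tested, the 1.3-fold limit was chosen after seeing the data, and Rpl3 and Rps2 are named for this pattern. Rpl3 shapes the site where the peptide bond is made, Rps2 lies by the entry of the message, and Rpl10a forms the stalk by which used transfer RNA leaves. Rpl3 had 349.6 CPM in trace and 182.2 CPM in pulse in the superficial-zone gate, and 594.2 and 831.2 CPM in the deeper-zone gate. Rps2 had 927 CPM in trace and 589.5 CPM in pulse in the superficial-zone gate, and 1271 and 1796 CPM in the deeper-zone gate. Rpl10a had 348.7 CPM in trace and 262.5 CPM in pulse in the superficial-zone gate, and 707.9 and 1209 CPM in the deeper-zone gate. The log2 ratio of trace over pulse in the superficial-zone gate was 0.94 for Rpl3, 0.65 for Rps2 and 0.41 for Rpl10a. In the deeper-zone gate it was -0.48 for Rpl3, -0.50 for Rps2 and -0.77 for Rpl10a. With edgeR TMM scaling the deeper-zone values were -0.21 for Rpl3, -0.22 for Rps2 and -0.50 for Rpl10a. Measured from the median of all features in that gate they were -0.14, -0.16 and -0.43, so Rpl10a alone of these was then past 1.3-fold in the deeper zone.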

How the results depend on the processing

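The 5 log2 ratios of the ribosomal protein share kept their sign under all alternatives run. The ratio of trace over pulse over all kept cells (0.36) was 0.48 without the transcripts that overlap ribosomal RNA, 0.40 without the members in the total, 0.53 without the 50 most abundant other features (added after seeing the data) and 0.66 with edgeR TMM scaling. It was 0.35 with 1000 or more genes per cell, 0.35 with no cell filter, 0.37 without the highest 5% of Scrublet scores, 0.53 with cells thinned to 2000 UMIs and 0.59 as a ratio of per-cell medians. Thinning left out cells under 2000 UMIs, so 7226 trace and 4765 pulse cells remained. Random thinning does not change the share expected in a cell, so this setting cannot test the part of depth. In the superficial-zone gate (0.69) the values in the first 4 settings were 0.81, 0.74, 0.87 and 1.08, and it was 0.71 at 1000 genes, 0.70 thinned and 0.63 by medians. In the deeper-zone gate (0.12) those 4 were 0.25, 0.14, 0.33 and 0.40, and it was 0.13 without the Scrublet scores, 0.10 thinned, 0.01 by medians and 0.19 with gates needing 1 more marker. Of deeper over superficial, trace (0.72) had 0.73, 0.81, 0.60 and 0.69 in those 4 settings, 0.73 at 5% or less mt- UMIs, 0.75 without the Scrublet scores, 0.69 thinned, 0.70 by medians and 0.79 with stricter gates. For that contrast pulse (1.28) had 1.41, 1.14 and 1.16 in the last 3 of those settings, 1.31 at 1000 genes, 1.29 at 5% mt-, 1.3 without the Scrublet scores, 1.32 by medians and 1.29 with stricter gates.

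TMM scaling also called 47 members higher and 1 lower over all kept cells, and 1 lower in the superficial-zone gate, where 74 were higher. Of 360 values of named members under the alternatives none changed sign where the reported value was past 1.5-fold. Values nearer to no difference could change sign. With TMM scaling, trace over pulse in the superficial-zone gate went from -0.11 to 0.28 for Rpl29 and from -0.12 to 0.27 for Rpl37. No paired analysis was possible because each group has 1 library. Single-library ratios carry counting error only, and gates of 30 to 58 pulse cells and Rpl39l rest on few UMIs.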
